A study of Homo sapiens with 5 samples.

Results

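The data describe trimethylation of lysine 9 on histone H3 (H3K9me3), which marks silenced chromatin, over the zinc finger genes of chromosome 19 in HEK293T cells, an established line from human embryonic kidney. The members are the RefSeq protein-coding genes on chromosome 19 (GRCh38.p14) whose symbol starts with ZNF, 250 of 20037 protein-coding genes on chromosomes 1 to 22, X and Y. They were chosen by name and position, with no measured value in the rule, though earlier results of these data were known. Their gene bodies have a median length of 23.3 kb and span 7.11 Mb once overlaps are merged. Of them, 3 are readthrough genes and 1 is named as a divergent transcript, and 34 overlap another member, so neighbouring members can share a peak.

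The study used chromatin immunoprecipitation and sequencing with an H3K9me3 antibody in crosslinked HEK293T cells. Its labels give H3K9me3 libraries from cells with the genotype WT, EV or KD, and inputs for the first 2 of these, with 1 library per group. EV is taken to mean cells with an empty vector, and KD cells with a knockdown of KCNQ1OT1, a long non-coding RNA; the design names the target KCNQ1OT1_K and does not say what the suffix means or how the knockdown was made. The sources used here do not give whether a line was 1 clone, and RNA was not measured in these files, so the knockdown itself was not checked. There are 3 deposited peak lists: the EV list with 24665 peaks over 50.5 Mb of the chromosomes, the KD list with 12650 over 20.6 Mb, and a list with no genotype in its name with 14362 over 29.8 Mb. The last was not assigned to WT or any other sample, and its values stand beside the others as a description only. With 1 library each, no difference below could be set against replicates, and conditions were not tested against each other. The lists hold no read counts, so the depth is unknown, and a shallower library gives fewer peaks at the same threshold.

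Zinc finger proteins of the KRAB type bind DNA through arrays of C2H2 fingers and recruit the corepressor TRIM28. TRIM28 brings in the methyltransferase SETDB1, which places H3K9me3, and heterochromatin proteins of the CBX family bind the mark. Many of these proteins silence transposable elements, and their own genes, which lie in tandem clusters, are known to carry H3K9me3 over the last exons, which encode the fingers. ZNF274 is known to bind these last exons and to recruit SETDB1 there.

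In the EV list 158 of the 250 genes (63.2%, exact interval 56.9 to 69.2) had a peak, and in the KD list 64 (25.6%, 20.3 to 31.5). Among all protein-coding genes the shares with a peak were 24.5% in EV and 11.5% in KD. At least 10% of the gene body lay under peaks in 62 members in EV and 5 in KD, or 24.8% (19.6 to 30.6) and 2.0% (0.653 to 4.61) of them. The corresponding backgrounds were 2.75% and 1.55%, so in KD the share of members was near that of all genes. The list without genotype had a peak on 129 members (51.6%, background 7.26%) and covered 10% or more of the body in 23 (9.20%, background 0.774%). All intervals are Clopper-Pearson 95% intervals, and they cover counting error only.

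The covered length was lower in KD than in EV at 155 members and higher at 7, and 88 had no peak in either list. Across all protein-coding genes 22.9% were lower and 3.16% higher in KD. Of the 158 members with an EV peak, 98 (62.0%) had none in KD, close to the 59.8% of all protein-coding genes with an EV peak. A peak in all 3 lists was found on 42 members (16.8%, background 3.1%), and 69 (27.6%, background 71.8%) had none in any. In the EV list 92 members had no peak, 96 were covered to under 10%, 39 to between 10% and 20%, and 23 to 20% or more. In KD these counts were 186, 59, 3 and 2, and in the list without genotype 121, 106, 20 and 3. The most covered member stood at 41.9% in EV, 25.3% in KD and 44.9% in the list without genotype, so none was covered over most of its body.

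**Figure D1:**
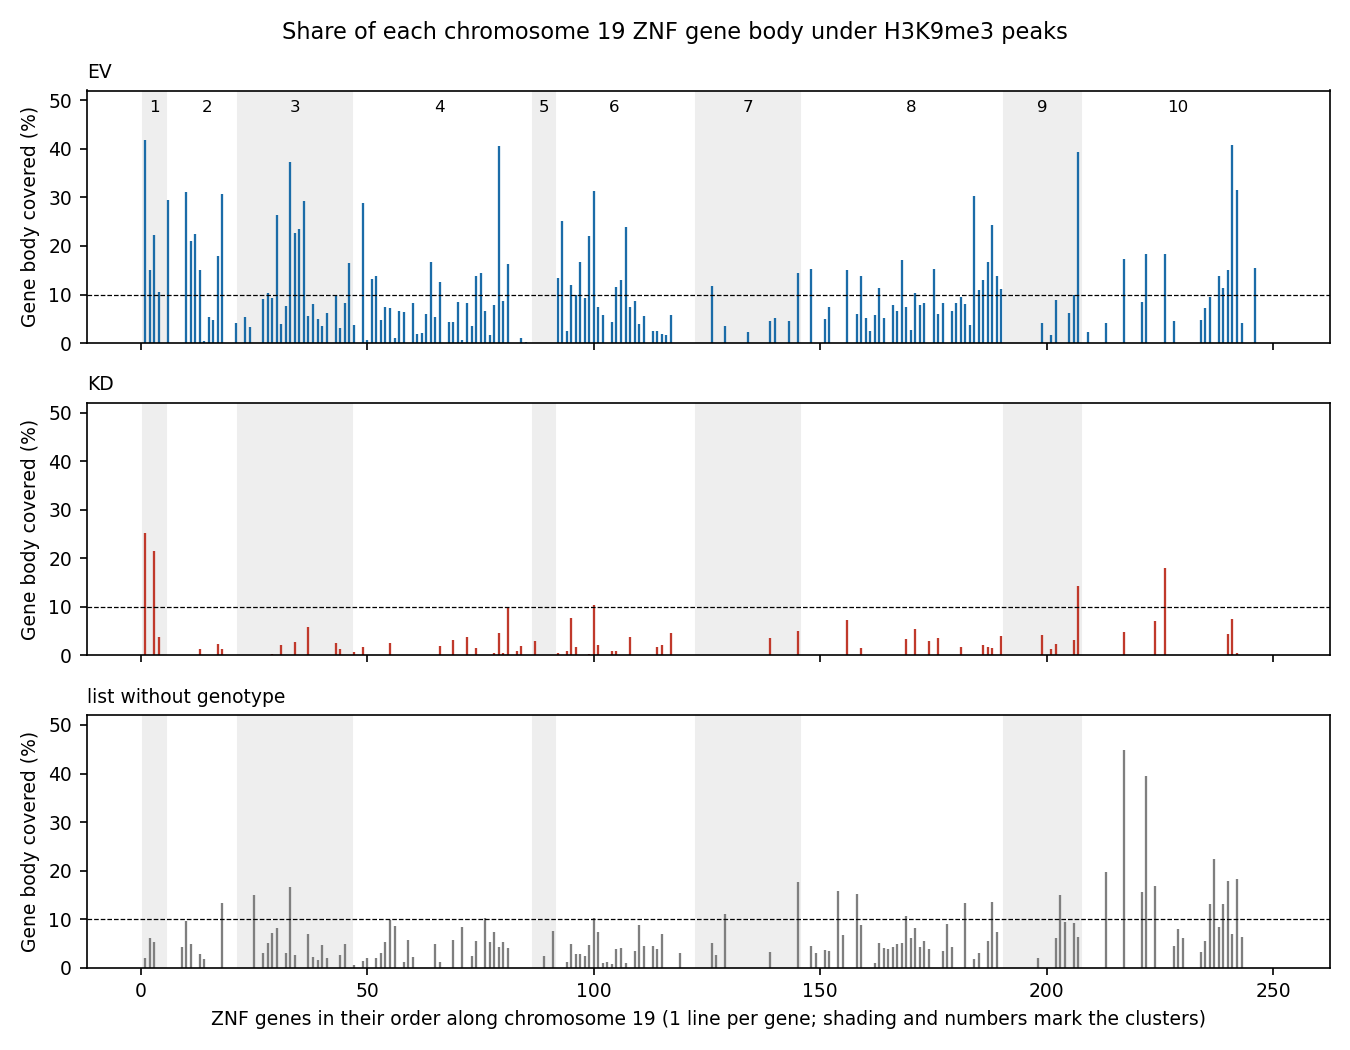
Share of each gene body under peaks (y axis, percent) for the 250 chromosome 19 ZNF genes in their order along the chromosome (x axis), with 1 panel per list. Numbers mark the 10 clusters, shaded in every other one with scattered genes unshaded between them, and the dashed line marks 10%. In EV 62 genes reach the line, in KD 5, and in the list without genotype 23.

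Over the merged gene bodies of all members the covered share was 6.91% in EV, 0.912% in KD and 3.34% in the list without genotype. Covered length in KD divided by that in EV, the KD/EV ratio, was 0.132. The same ratio was 0.250 in the 1201 other protein-coding genes of chromosome 19, 0.214 in the 268 ZNF genes on other chromosomes, and 0.294 in all protein-coding genes. These ratios depend on how many peaks were called. With EV limited to its 12650 strongest peaks by −log10 p, the number in the KD list, the ratio in the members was 0.402, against 0.476, 0.454 and 0.552 in those 3 groups. In that setting 86 members (34.4%, background 14.1%) had an EV peak and 17 (6.8%, background 1.55%) reached 10% of the gene body, against 64 and 5 in KD. The direction was the same, and most of the gap in members reaching 10% went with the weaker EV peaks.

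The members took up an unequal part of the lists. They held 0.972% of all bases under EV peaks, 0.315% of those under KD peaks and 0.797% of those in the list without genotype. By number, 354 of the EV peaks (1.44%), 76 of the KD peaks (0.601%) and 254 of the peaks without genotype (1.77%) touched a member. The other protein-coding genes of chromosome 19 were covered to 1.34% in EV, 0.336% in KD and 0.174% in the list without genotype, and for the ZNF genes on other chromosomes these shares were 2.51%, 0.539% and 0.976%.

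The most covered gene in EV was ZNF554, at chr19:2819868-2836735, with 41.9% in EV, 25.3% in KD and 1.99% in the list without genotype. A single EV peak of 7068 bp was centred at 76.7% of the gene from the 5′ end, and 2 KD peaks, of 1090 and 3174 bp, lay inside or across the edge of that stretch. ZNF274 (chr19:58183061-58213562) had 40.9% in EV, 7.44% in KD and 7.06% in the list without genotype. It carried 4 EV peaks, among them the widest EV peak in any member, 8043 bp at chr19:58188410-58196452, centred at 30.7% of the gene from its 5′ end. A single KD peak, of 508 bp, overlapped that stretch, and the other 2 KD peaks of ZNF274 lay where EV had none. The 5′ part of ZNF274, from a split of the gene into 3 equal parts, held 38.6% of its EV covered length and the 3′ part 25.1%.

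ZNF724 (chr19:23221599-23250394) had 40.5% in EV, 4.64% in KD and 4.25% in the list without genotype. Its widest EV peak, 6750 bp at chr19:23222557-23229306, was centred at 85.0% of the gene from the 5′ end, and 2 KD peaks of 502 and 833 bp overlapped it. ZNF878 (chr19:12043602-12052961) had 37.2% in EV, no peak in KD and 16.6% in the list without genotype. ZNF317 (chr19:9140397-9163413) had 31.1% in EV from 4 peaks, none in KD and 9.61% in the list without genotype. ZNF845 had 30.3% in EV, no peak in KD and 1.80% in the list without genotype. Of these 4 genes ZNF724 alone had a peak in KD.

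ZNF544, ZNF850 and ZNF121 lay close together in EV, at 31.4%, 31.3% and 30.6%. In KD they spread to 0.509%, 10.3% and 1.39%, and in the list without genotype they stood at 18.3%, 10.2% and 13.3%. ZNF835 (chr19:56661980-56671757) had 39.4% in EV, 14.4% in KD and 6.41% in the list without genotype. It also carried the strongest member peak of the list without genotype, at chr19:56669555-56670181, with a fold enrichment over the caller's background of 9.24 and a −log10 p of 17.8. ZNF850 was the 1 member that reached 10% in all 3 lists.

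All 5 members that reached 10% in KD also did so in EV, where 24.8% of all members did. The 5 were ZNF554, ZNF556, ZNF551, ZNF835 and ZNF850. ZNF556, near ZNF554, had 22.2% in EV and 21.6% in KD from 1 peak in each list, and 5.41% in the list without genotype. ZNF551 had 18.4% in EV and 17.9% in KD, and no peak in the list without genotype. Its peaks, chr19:57683606-57685201 in EV and chr19:57683630-57685183 in KD, share nearly all their length. ZNF675, next in KD with 9.67%, had 16.3% in EV and 4.18% in the list without genotype. ZNF556 and ZNF551 were thus almost equally covered in EV and KD, unlike most members.

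The 7 members with more covered length in KD than in EV all stayed under 10% in KD. ZNF134 had 7.11% in KD, no peak in EV and 16.8% in the list without genotype. ZNF302, ZNF468 and ZNF726 had 2.90%, 2.89% and 1.00% in KD and no EV peak. ZNF254 had 1.95% in KD and 1.02% in EV. The longest members with no peak in any list were ZNF541 (52.6 kb), ZNF100 (44.8 kb) and ZNF507 (42.1 kb). ZNF541 is a germ cell gene with a role in meiosis, and ZNF541 and ZNF507 lie outside the clusters.

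Of the 6 most covered members of the list without genotype, ZNF544 was also among the 10 most covered in EV, and the other 5 were not. ZNF772 had 44.9% there, 17.3% in EV and 4.84% in KD, and ZNF416 had 39.5%, 18.2% and no KD peak. ZNF256 had 22.5% there and no peak in EV or KD. ZNF547 had 19.7% there, 4.18% in EV and no KD peak, and ZNF329 had 17.9%, 15.02% and 4.45%. All 6 lie in the last cluster before the end of the long arm, which also holds ZNF274 and ZNF551. Of them ZNF772, ZNF416 and ZNF256 are short, at 7.98, 7.35 and 6.87 kb against a member median of 23.3 kb. In a short gene 1 or 2 peaks make a large share. The share of ZNF772 in the list without genotype came from 1 peak of 3584 bp with a −log10 p of 3.71. Of the 23 members at 10% in the list without genotype, 10 (43.5%) were among the 62 of EV, which is 16.1% of those. Among all members EV reached 10% in 24.8% and the list without genotype in 9.20%.

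Along the chromosome the members fell into 10 clusters, taken as runs of at least 5 with gaps of at most 500 kb, which held 236 of them, and 14 members were scattered. The covered share in EV was higher than in KD in 9 of the 10 clusters. It was highest in the cluster from ZNF554 to ZNF77 near the end of the short arm (chr19:2819868-2944971, 5 members), with 18.9% in EV, 10.3% in KD and 2.93% in the list without genotype. Its KD/EV ratio was 0.548, the highest of any cluster, and 4 of its members reached 10% in EV and 2 in KD. The next short-arm clusters, ZNF414 to ZNF846 (14 members) and ZNF653 to ZNF791 (25 members), had 10.4% and 8.48% in EV but 0.443% and 0.562% in KD. Their KD/EV ratios, 0.0428 and 0.0663, were the lowest of the clusters with an EV peak.

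The cluster from ZNF101 to ZNF254 (chr19:19668153-24129968, 37 members) lies next to the gene-free stretch that holds the centromere. It had 6.86% in EV, 0.896% in KD and 3.24% in the list without genotype, with a peak on 32, 12 and 22 members. On the other side of the centromere, ZNF302 to ZNF792 (5 members) had no EV peak at all, 0.301% in KD and 1.75% in the list without genotype. ZNF565 to ZNF573 (26 members) had 9.32% in EV and 1.28% in KD, with an EV peak on 24 members. The cluster ZNF575 to ZNF180 (23 members) was low, with 2.53% in EV, 0.530% in KD and 2.38% in the list without genotype. Its most covered member in EV, ZNF180, had 14.4% there, 4.96% in KD and 17.7% in the list without genotype.

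ZNF175 to ZNF331 (chr19:51571283-53580269, 41 members) had 8.22% in EV and 0.813% in KD, with 13 members at 10% in EV and none in KD. ZNF628 to ZNF835 (17 members) had 4.63% in EV, 1.73% in KD and 4.29% in the list without genotype. The cluster ZNF264 to ZNF446 (chr19:57191500-58489533, 43 members) had 7.61% in EV, 0.953% in KD and 6.29% in the list without genotype. It held 10 of the 23 members at 10% in the list without genotype, against 9 of the 62 in EV. The scattered members had 1.38% in EV, 0.0864% in KD and 0.333% in the list without genotype, below the 7.60%, 1.02% and 3.72% of the clustered ones.

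**Figure D2:**
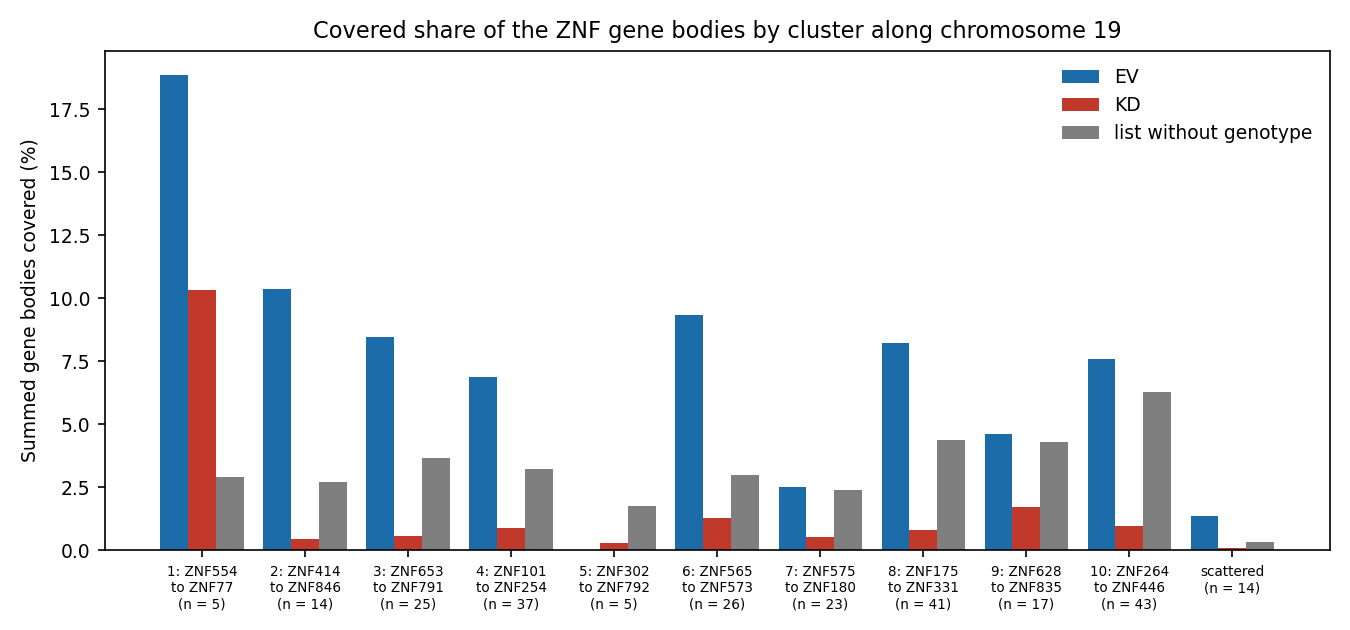
Share of the summed ZNF gene bodies under peaks (y axis, percent) in each cluster along chromosome 19 and in the scattered genes (x axis, n = genes), with 1 bar per list and no error bars because each list is 1 library. ZNF554 to ZNF77 is highest in EV (18.9%) and KD (10.3%), and ZNF302 to ZNF792 has no EV bar.

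The peaks in the clusters were not limited to the ZNF genes. Within the spans of the 10 clusters, EV peaks covered 7.60% of the member gene bodies, 4.26% of the other protein-coding gene bodies and 6.69% of the sequence in neither. In KD these shares were 1.02%, 0.776% and 1.93%, so the sequence outside protein-coding genes was covered more than the protein-coding gene bodies. In the list without genotype they were 3.72%, 1.31% and 4.47%. Related zinc finger genes without the prefix, chromosome 19 genes whose symbol starts with ZSCAN, ZFP, ZIM, ZIK, ZKSCAN or ZBTB, numbered 18. They were covered to 6.87% in EV, 2.08% in KD and 2.91% in the list without genotype, and 4 reached 10% in EV and none in KD. ZSCAN18 had 35.6%, 9.73% and 15.9% in the EV, KD and unassigned lists, and ZSCAN1 had 23.5%, 9.04% and 6.82%.

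Strand could be read from the RefSeq promoter table for 219 members, and each gene body was then split into a 5′, a middle and a 3′ part of equal length. The 3′ part held 39.1% of the covered length in EV, the middle part 31.8% and the 5′ part 29.0%. In the list without genotype these shares were 43.5%, 30.6% and 25.9%. In KD they were 38.7%, 23.6% and 37.7%, with the 2 ends nearly equal. The KD length in the 3′ parts of all these members was 24.5 kb. The cluster ZNF554 to ZNF77 alone had 8.40 kb covered in KD, and 81.3% of that lay in the 3′ part. Among all protein-coding genes with a strand, the 3′ part held 27.6% in EV, 25.2% in KD and 35.6% in the list without genotype. Among the other genes of chromosome 19 it held 30.3%, 25.1% and 26.1%, below the members in each list. For ZNF genes on other chromosomes it held 31.4%, 30.3% and 39.4%. For the related zinc finger genes of chromosome 19 without the prefix, 13 of which have a strand, it held 39.3%, 24.9% and 41.8%, so their shares in EV and in the list without genotype lay near those of the members.

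By gene, 93 of the 219 members (42.5%) had an EV peak in the 3′ part, 83 (37.9%) in the middle and 78 (35.6%) in the 5′ part. In KD these counts were 25, 21 and 29 (11.4%, 9.59% and 13.2%). In the list without genotype they were 76, 55 and 48 (34.7%, 25.1% and 21.9%). The shares of all protein-coding genes with a strand, in the same order, were 9.82%, 12.4% and 13.7% in EV. They were 3.81%, 4.88% and 6.31% in KD, and 3.36%, 3.28% and 3.26% in the list without genotype. The 3′ part was the most covered at 53 of 135 members with an EV peak, at 18 of 59 with a KD peak and at 53 of 112 in the list without genotype. In KD the 5′ part was the most covered more often, at 26 of 59. The same held over all protein-coding genes with a strand, at 871 of 1875 with a KD peak. Among all protein-coding genes with a strand, the 3′ part was the most covered at 1032 of 3995, 444 of 1875 and 410 of 1189. ZNF554, ZNF850 and ZNF724 had 74.0%, 70.7% and 57.8% of their EV covered length in the 3′ part, and ZNF556 had all of it there. ZNF878 and ZNF835 had 83.2% and 76.0% of theirs in the 5′ part instead. The 3′ share of the EV covered length ran from 22.3% in the cluster ZNF575 to ZNF180 up to 62.1% in the cluster ZNF554 to ZNF77. Exon positions were not used here, so peaks were not set against the exons that encode the fingers.

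Along members of at least 5 kb, the mean covered share in EV was 5.20% in the first of 10 equal steps of the gene body, 9.39% in the ninth and 7.32% in the last, and 5.95% in the first 1 kb past the 3′ end. Just before the 5′ end, in the nearest 1 kb, it was 4.0%. In the list without genotype the first step had 2.29%, the ninth 5.59% and the last 5.04%, and the first 1 kb beyond had 2.58%. In KD these values were 1.28%, 1.39%, 1.27% and 1.19%, and over the whole body they ran from 0.529% to 1.52%.

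**Figure D3:**
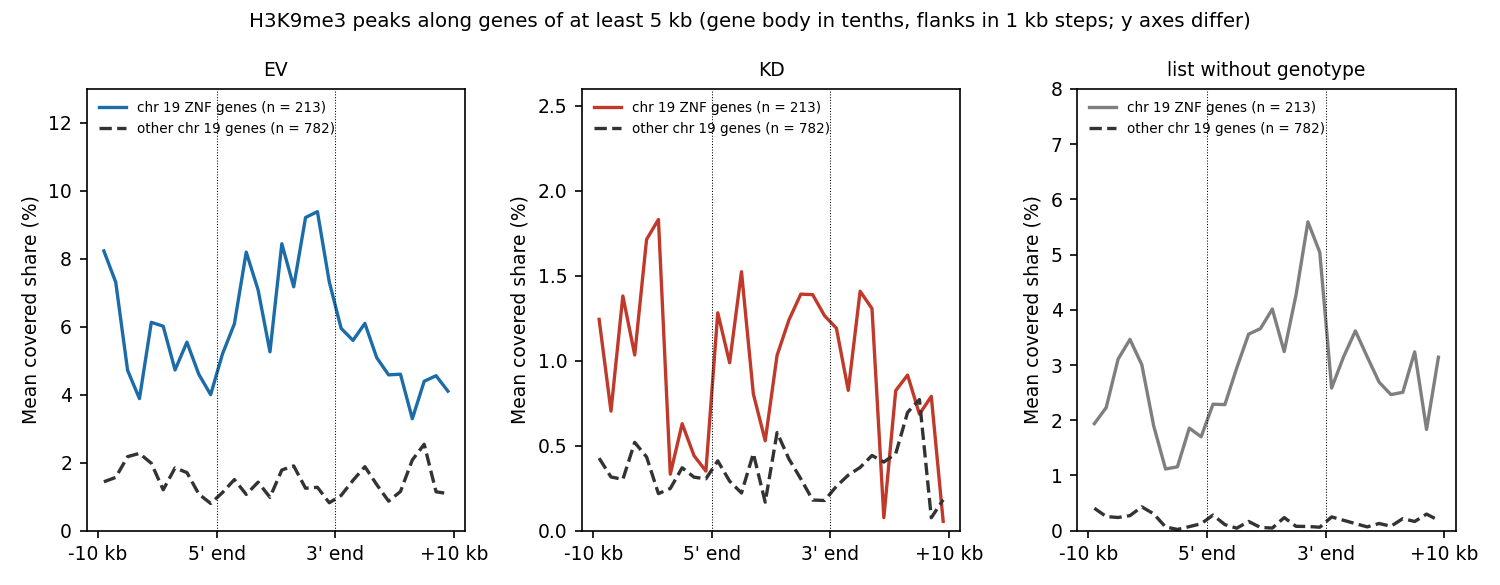
Mean covered share (y axis, percent, with a scale of its own in each panel) from 10 kb before the 5′ end to 10 kb past the 3′ end (x axis; gene body in 10 equal steps, flanks in 1 kb steps), for 213 ZNF genes of chromosome 19 and 782 other protein-coding genes of that chromosome of at least 5 kb. In EV and in the list without genotype the ZNF line is highest in the ninth step of the body, at 9.39% and 5.59%.

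Peaks before the start of a member were few. In the 250 bases before an annotated start, 16 of the 219 members with such a window (7.31%) had an EV peak, 5 (2.28%) a KD peak and 5 (2.28%) a peak in the list without genotype. The backgrounds over 15842 protein-coding genes were 1.92%, 1.32% and 0.366%. The 5 members under both EV and KD peaks were ZNF844, ZNF540, ZNF331, ZNF667 and ZNF544, and ZNF540 and ZNF544 were under a peak in all 3 lists. ZNF331 is an imprinted gene with several starts, and 4 of its windows lay under KD peaks. Their sequences are shown, with 1 window for ZNF331, because these are starts where both named lists had the mark. That of ZNF724 is shown because its start had none although 40.5% of its body was covered in EV. All the sequences are the 250 bases before the start, from RefSeq on GRCh38.p14, 5′ to 3′ along the gene, and capitals mark CG dinucleotides.
ZNF540 (chr19:37551124-37551373, plus strand): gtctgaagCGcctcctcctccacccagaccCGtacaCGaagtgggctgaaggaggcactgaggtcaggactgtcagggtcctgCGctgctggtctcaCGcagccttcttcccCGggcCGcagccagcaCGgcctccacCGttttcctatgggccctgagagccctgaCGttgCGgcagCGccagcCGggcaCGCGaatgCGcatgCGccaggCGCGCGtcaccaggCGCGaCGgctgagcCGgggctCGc
ZNF544 (chr19:58228664-58228913, plus strand): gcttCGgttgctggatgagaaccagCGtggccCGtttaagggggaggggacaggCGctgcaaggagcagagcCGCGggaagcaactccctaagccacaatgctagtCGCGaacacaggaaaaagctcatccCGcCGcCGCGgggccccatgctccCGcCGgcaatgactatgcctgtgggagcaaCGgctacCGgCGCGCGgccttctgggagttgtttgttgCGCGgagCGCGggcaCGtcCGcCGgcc
ZNF331 (chr19:53554363-53554612, plus strand): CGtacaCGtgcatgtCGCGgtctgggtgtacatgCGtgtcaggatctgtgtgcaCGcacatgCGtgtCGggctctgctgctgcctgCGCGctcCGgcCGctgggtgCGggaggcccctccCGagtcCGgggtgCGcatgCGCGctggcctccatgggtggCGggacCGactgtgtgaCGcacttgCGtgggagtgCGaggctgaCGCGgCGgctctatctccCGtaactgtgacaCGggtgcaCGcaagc
ZNF667 (chr19:56477346-56477595, minus strand): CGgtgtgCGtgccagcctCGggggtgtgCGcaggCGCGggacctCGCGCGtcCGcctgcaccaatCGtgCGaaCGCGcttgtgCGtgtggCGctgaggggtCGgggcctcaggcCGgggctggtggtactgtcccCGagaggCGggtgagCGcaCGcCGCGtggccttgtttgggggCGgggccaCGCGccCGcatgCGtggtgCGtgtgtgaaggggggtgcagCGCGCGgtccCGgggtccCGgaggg
ZNF844 (chr19:12064481-12064730, plus strand): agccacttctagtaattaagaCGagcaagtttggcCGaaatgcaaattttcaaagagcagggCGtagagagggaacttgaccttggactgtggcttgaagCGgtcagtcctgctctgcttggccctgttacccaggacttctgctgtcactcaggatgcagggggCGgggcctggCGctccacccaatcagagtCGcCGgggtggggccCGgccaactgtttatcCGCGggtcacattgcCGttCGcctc
ZNF724 (chr19:23250395-23250644, minus strand): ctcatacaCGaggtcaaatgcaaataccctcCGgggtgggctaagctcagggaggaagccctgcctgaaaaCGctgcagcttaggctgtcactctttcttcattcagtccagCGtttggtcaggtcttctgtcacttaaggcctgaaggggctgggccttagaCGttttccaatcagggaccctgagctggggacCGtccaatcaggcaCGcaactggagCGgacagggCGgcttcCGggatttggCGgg

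The windows shown of ZNF540, ZNF544, ZNF331 and ZNF667 hold 25, 26, 29 and 35 CG dinucleotides, and those of ZNF844 and ZNF724 hold 13 and 11. The ZNF331 windows under both EV and KD peaks that are not shown hold 21, 8 and 8. The median over 271 member windows and over the 22175 windows of all protein-coding genes was 16 in both. Over the 23 member windows with an EV peak it was 19, with quartiles of 10 and 24.5. EV peaks covered all 250 bases at ZNF540, ZNF544, ZNF331 and ZNF844 and 247 at ZNF667, and KD peaks covered 250, 250, 210, 83 and 250. The letters CCAAT, on either strand, are in 47.2% of the member windows and in 32.7% of all. The letters CCGGAAG, the core bound by ETS factors, are in 28.0% and 10.7%, and TATAAA in 2.58% and 9.0%. Of the 6 windows shown, those of ZNF844, ZNF667 and ZNF724 hold CCAAT, and that of ZNF724 also holds CCGGAAG. Some genes have several overlapping windows, and these matches are letters in a window, not sites.

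Member peaks had low significance values. Their median −log10 p was 4.0 in EV, 4.30 in KD and 3.72 in the list without genotype, against 4.42, 4.92 and 3.85 for peaks in other protein-coding genes. In EV 268 of the 354 member peaks (75.7%) had a −log10 p under 5, against 60.4% in other protein-coding genes. A −log10 p of 10 was reached by 12 EV, 3 KD and 1 unassigned member peaks, or 3.39%, 3.95% and 0.394%, against 11.5%, 10.9% and 2.42% in other protein-coding genes. The median width was 1180 bp in EV, 713 bp in KD and 808 bp in the list without genotype, against 920 bp, 731 bp and 782 bp in other protein-coding genes. At least 2 kb was reached by 67 EV peaks (18.9%) and 4 KD peaks (5.26%) of members, against 8.25% and 5.99% in other protein-coding genes. MACS2 gives a broad peak the mean value over its length, so wide peaks can have modest values.

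Ranked by −log10 p, the strongest member peak in EV and in KD lay inside ZNF227. It was at chr19:44219998-44221361 in EV with a value of 61.7 and at chr19:44220081-44221133 in KD with 21.8. Its fold enrichment was 3.65 in EV and 3.10 in KD, against medians of 3.15 and 3.71 over the member peaks. A peak in the list without genotype, with a −log10 p of 7.52, lay at the same place. ZNF227 was nonetheless covered to only 4.59%, 3.54% and 3.36%. The next strongest in EV lay in ZNF701 (26.8), ZNF614 (25.3), ZNF329 (19.2) and ZNF57 (17.4), and each of them was overlapped by a KD peak. The 5 strongest EV peaks were 955 to 1585 bp wide, and the sixth, in ZNF699 (14.2), had no KD peak over it. Among the 10 members most covered in EV, the widest peak of each ran from 1993 bp in ZNF317 to 8043 bp in ZNF274. Its −log10 p ran from 3.902 in ZNF554 to 8.70 in ZNF845, below those of the 5 strongest peaks.

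Of the 354 EV peaks in members, 63 (17.8%, 13.95 to 22.2) were overlapped by a KD peak, against 28.7% (27.7 to 29.7) of the EV peaks in other protein-coding genes. The share went with the strength of the EV peak in both groups. Below a −log10 p of 4 it was 7.91% (4.39 to 12.9) in members and 7.41% (6.49 to 8.42) in other genes. Between 4 and 5 it was 10.99% (5.40 to 19.3) and 18.6% (16.7 to 20.6). Between 5 and 7 it was 30.4% (18.8 to 44.1) and 36.0% (33.4 to 38.6). Between 7 and 10 it was 61.1% (35.7 to 82.7) and 52.6% (48.9 to 56.3), and above that 6 of 7 and 5 of 5 member peaks were found in KD. Within every one of these ranges of strength the intervals of members and of other genes overlapped. With 18, 7 and 5 member peaks in the ranges from 7 up, those intervals are wide, so the overlap does not show equal shares.

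**Figure D4:**
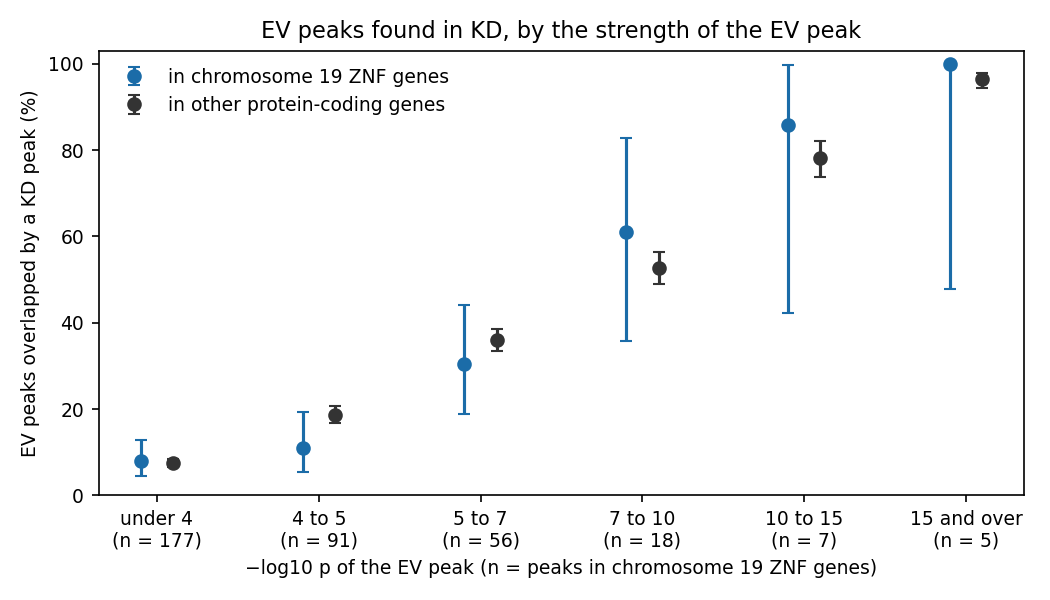
Share of EV peaks overlapped by a KD peak (y axis, percent) by the −log10 p of the EV peak (x axis), for peaks in chromosome 19 ZNF genes (n below each range) and in other protein-coding genes. Points are shares and bars are exact 95% intervals over peaks; both sets go from under 8% in the weakest range to over 96% in the strongest.

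The other way round, 64 of the 76 KD peaks in members (84.2%, 74.0 to 91.6) had an EV peak over them, against 78.5% of KD peaks in other protein-coding genes, and 84.3% of the KD bases in members lay under EV peaks. Of the EV bases in members 11.1% lay under KD peaks. Of the 254 member peaks of the list without genotype, 68 (26.8%, 21.4 to 32.7) were overlapped by EV and 17 (6.69%, 3.95 to 10.5) by KD, against 25.5% and 17.6% of its peaks in other protein-coding genes. Counted from EV, 67 member peaks (18.9%) were overlapped by it, against 6.46% of the EV peaks in other protein-coding genes. KD overlapped 63 EV member peaks (17.8%), against 28.7% in other protein-coding genes. The list without genotype shared 20.1% of its bases in members with EV, which is 9.72% of the EV bases. All 3 lists had 9.64 kb of member sequence in common. Of the 129 members marked in the list without genotype, 108 (83.7%) were also marked in EV, which is 68.4% of those marked in EV. Among all 250 members EV marked 63.2% and the list without genotype 51.6%. Most member peaks of the list without genotype had no EV peak over them.

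The machinery that works with these proteins was looked at in the same way, in a list of 24 corepressors, histone and DNA methyltransferases, demethylases, binding proteins, remodellers and chaperones. In it 11 genes (45.8%) had an EV peak, against a background of 24.5%. A KD peak was found on 3 (12.5%) and a peak in the list without genotype on 2 (8.33%), near the backgrounds of 11.5% and 7.26%. The listed genes are longer, with a median of 49.96 kb against 24.1 kb for all protein-coding genes, and the counts were not adjusted for length. By covered share in EV the listed genes stood at 0.793%, against 0.684% for all protein-coding genes. None of the 24 reached 10% of the gene body, and with backgrounds of 0.774% to 2.75% few of 24 would be at that level. TRIM28, SETDB1 and DNMT1 had no peak in any list. CBX5, the gene of HP1 alpha, which binds the mark, had 3.601% in EV and no peak in KD or the list without genotype. SUV39H2, a methyltransferase for this mark, had 5.19% in EV and 4.95% in KD, and EHMT1, which methylates the same lysine, had 1.25%, 0.397% and 0.345% in the EV, KD and unassigned lists.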

How the data were processed

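Per the submitters' processing notes, reads were aligned with Bowtie2 and peaks called with MACS2 on GRCh38. The sources used here do not give versions, options, the control library, filters or pooling. The files are 3 broad peak lists. For each peak the authors deposited a fold enrichment (ratio), a −log10 p and a −log10 q. These serve here only to describe or filter peaks within a list. The smallest −log10 q was between 1.01 and 1.02 in the lists. Reads from near-identical zinc finger genes can match several places, so values in such genes are uncertain.

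Genes came from the RefSeq table of GRCh38.p14, and strand from its promoter table, which matched 219 of the 250 members (31 had none). A peak counted for a gene at an overlap of 1 bp or more, and a gene was counted as covered at 10% of its body. Covered bases were computed with numpy 2.4.6 and pandas 2.3.3 in Python 3.11.15, intervals with scipy 1.17.1, reciprocal overlaps with bedtools 2.31.1 and plots with matplotlib 3.10.9. On simulated data the planted bases of 300 of 300 genes were recovered. No count test was used, since each group has 1 library. Alternatives were stricter −log10 q and fold, joined peaks, equal peak numbers, other overlap and gene criteria, and other cluster gaps.

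The named genes are the 10 members most covered in EV, the 6 most covered in KD and in the list without genotype, up to 5 with the largest excess of KD over EV, the most covered member in EV of each cluster, the 3 longest with no peak, and ZNF724, ZNF274, ZNF878 and ZNF317. Others were named after their values were seen: the genes with the strongest peaks, those with a peak at the start, ZSCAN1 and ZSCAN18, and the machinery genes. The sequence motifs and the ranges of −log10 p were also set then. The members and lists were chosen with earlier results of these data known.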

Additional observations from a re-analysis of the deposited data

How the results depend on the processing

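In each alternative that recomputed both lists, the members had more covered length in EV than in KD. The sizes moved with the peak set. At a −log10 q of at least 2, 27 members in EV, 1 in KD and 2 in the list without genotype reached 10% of the gene body, 28 had any KD peak, EV covered 3.56% and KD 0.411%, and the KD/EV ratio 0.116. At a fold enrichment of at least 3 EV and KD covered 5.02% and 0.897%, the ratio 0.179, and 22.9% of EV peaks were overlapped by KD. With peaks within 3 kb joined the shares were 8.54% and 1.09% and the ratio 0.128. With EV limited to the number of KD peaks, 17 members (6.8%, background 1.55%) reached 10% and 86 (34.4%, background 14.1%) had a peak. In that setting the covered share was 2.27%, the ratio 0.402 and the overlapped share 37.8%. At 5% of the gene body 116, 12 and 65 members were counted in EV, KD and the list without genotype, and at 20% these counts were 23, 2 and 3. The shares over all protein-coding genes were not computed at these thresholds or at the stricter −log10 q. The member counts there stand without a background. Reciprocal overlap of 50% left 11.0% of EV peaks matched. Leaving out members under 5 kb gave 6.93% in EV. The 3′ share of the covered length was 42.1% in EV and 33.5% in KD at the stricter −log10 q, 40.8% and 39.4% at the higher fold, 38.4% and 39.3% with joined peaks, 40.8% in EV at equal peak numbers, and 56.9% and 53.5% with genes split into 2 equal parts. EV was above KD in 10 of 12 clusters at a gap of 250 kb and 8 of 9 at 1000 kb. No paired analysis was possible because each group has 1 library. Depth, which these lists do not give, limits what can be read from the lower KD values, and most member peaks lie near the calling threshold.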
